A study of Mus musculus with 12 samples.

Results

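The comparison set 4 ear libraries of mice given MC903, titled Model-1 to Model-4, against 4 ear libraries of untreated mice, titled Blank-1 to Blank-4. They are 8 of the 12 libraries of the series, taken by title, and all 15403 genes that passed the expression filter were tested. Both groups are wild-type ears, and per the labels the Model ears received MC903 and the Blank ears received nothing. The other 4 libraries come from ears given isoliensinine, a plant alkaloid. They were not compared here, but they counted in the expression filter, the scaling of the libraries and the estimate of the spread between libraries. With the Model and Blank libraries alone, 15031 genes passed the filter. The strain, sex and age of the mice, the dose, vehicle and days of MC903, and the hour of sampling are not given in the sources used here. Blank is untreated rather than vehicle-treated, so applying a solution and MC903 itself cannot be told apart as sources of a difference. Whether each library comes from its own animal is not stated in the labels, and every p-value measures the spread between these libraries, which may be technical.

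MC903, or calcipotriol, is an analogue of active vitamin D that binds the vitamin D receptor. Painted on mouse ears it makes keratinocytes release the cytokine TSLP, and a red, thickened and scratched skin develops that is used as a model of atopic dermatitis. The ear is a sheet of elastic cartilage with thin muscle between layers of skin, so RNA from a whole ear mixes epidermis, hair follicles, sebaceous glands, dermis, vessels, fat, cartilage, muscle and any leukocytes that have entered. In such bulk RNA, fewer cells of a type and less RNA per cell cannot be told apart, and this holds for every change given here.

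The MC903 ears differed from untreated ears in most of the genes tested, and the large differences were mainly rises. With edgeR's quasi-likelihood test, an adjusted p under 0.05 was reached by 70.1% of the tested genes, 5436 higher in Model (35.3%) and 5369 lower (34.9%). Against a fold of 2, 2385 genes passed (15.5%), of which 1747 were higher (11.3%) and 638 lower (4.14%). These last 3 percentages are the background for counts of list members beyond 2-fold. For counts of members higher or lower by the test against no change, the background is 35.3% and 34.9%. The split depends on the scaling: 50.3% of the called genes were higher with TMM, 38.9% without scaling factors, 40.5% with upper-quartile factors, 38.8% on FPKM and 32.4% on TPM values, which moved the median of all genes to between -0.12 and -0.22. Small changes on the log2 scale are therefore relative to TMM. Beyond 2-fold, 73.3% of the called genes were higher with TMM and 64.9% to 73.6% with those alternatives. The median log2 change over all tested genes was -0.01 and the 5th and 95th percentiles were -1.21 and 2.80. Among the genes that passed the 2-fold test, 701 rose by 3 or more on the log2 scale and 31 fell by as much, and 253 rose by 5 or more where no gene fell by 5. Every Model library lay above every Blank library for 33.9% of the tested genes and below for 33.4%, which is the background for each statement that groups did not overlap. The genes that rose beyond 2-fold held 18.6% to 19.4% of all counts in the Model libraries and 4.04% to 4.15% in the Blank libraries. The genes that fell beyond 2-fold held 2.39% to 2.76% in Model and 8.52% to 8.80% in Blank.

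**Figure D1:**
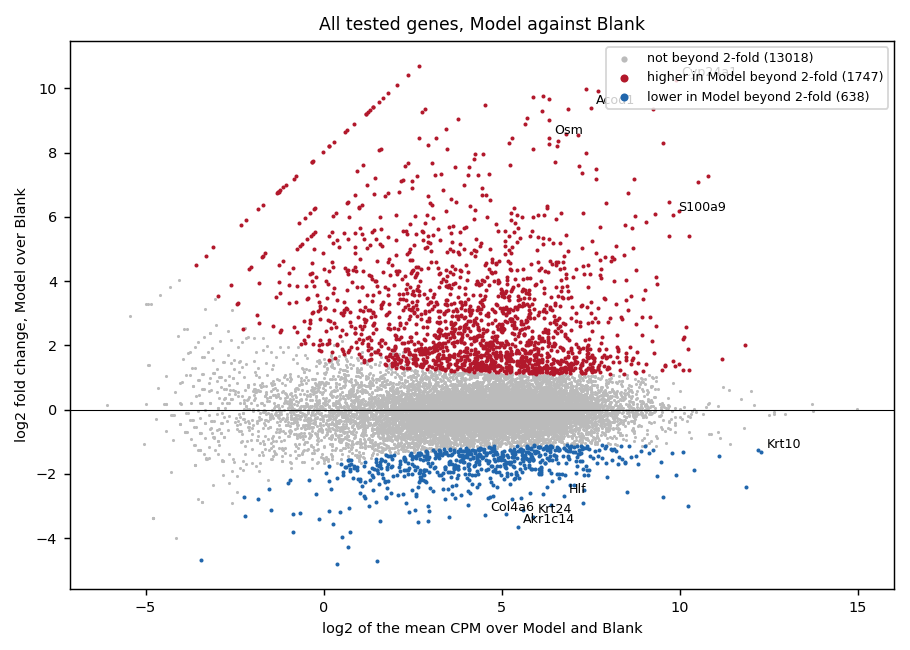
Each point is 1 of the 15403 tested genes, with the log2 of its mean CPM over the 8 libraries on the x axis and its log2 fold change, Model over Blank, on the y axis; coloured points passed the test against a fold of 2. The 1747 red points reach further from 0 than the 638 blue ones, with log2 changes past 9 for genes such as Acod1 against -3.65 for Akr1c14.

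Totals ran from 13884927 to 17213227 counts in Model and from 15791536 to 17004780 in Blank, and the within-group spread, as a biological coefficient of variation, came to 4.70% in Model and 3.57% in Blank. Of the keratinocyte markers Krt5, Krt14, Krt10, Krt1 and Trp63 none was at 0, and together they held 1.06% to 1.30% of counts in Model and 1.66% to 1.77% in Blank. Markers of other ear tissues moved with the groups too. Skeletal muscle genes held 0.296% to 0.341% in Model and 0.575% to 0.627% in Blank, cartilage genes 0.0844% to 0.0907% and 0.162% to 0.176%, and sebaceous gland genes 0.357% to 0.400% and 0.826% to 0.869%. Erythrocyte genes held 0.0134% to 0.0146% in Model and 0.00657% to 0.00783% in Blank, and markers of liver and salivary gland, which an ear lacks, held 0.000804% to 0.000971% in Model and 0.00154% to 0.00174% in Blank. The 100 most abundant genes held 22.3% ± 0.163 of counts in Model and 23.9% ± 0.143 in Blank (SD, n = 4 each; exact two-sided permutation p = 0.0286, the smallest that 4 against 4 allow, and 0.0571 adjusted over 4 library measures). Cytosolic ribosomal protein genes held 3.27% ± 0.0457 in Model and 3.64% ± 0.0741 in Blank, with the same exact permutation p of 0.0286 and 0.0571 after adjustment.

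The 10 largest rises were taken among genes with counts in both groups, an FPKM of 5 or more and groups that do not overlap. Of these 10, 4 were chemokines, and by the same rule the largest fall was in a steroid-metabolising enzyme. The rises were, in order, in Cyp24a1, whose product breaks down active vitamin D, the acute-phase gene Saa3, the chemokine Cxcl5, the stefin-family gene Cstdc4, the chemokines Ccl4 and Cxcl3, Acod1, which makes itaconate in activated macrophages and neutrophils, the chemokine Cxcl2, the chitinase-like gene Chil3 and the granulocyte growth factor gene Csf3. Saa3 had 305, 351, 313 and 344 CPM in Model, against 0.551, 0.284, 0.118 and 0.290 CPM in Blank. Acod1 had 381, 331, 359 and 369 CPM in Model, against 1.05, 0.455, 0.531 and 0.0581 CPM in Blank and rose by 9.39 ± 0.19 on the log2 scale (± SE, edgeR adjusted p = 3.5e-21). CPM is counts per 1000000 after TMM scaling. For both genes every Model library lay above every Blank library, as the rule required. Csf3 had 868 counts over the 4 Model libraries and 1 count over the 4 Blank libraries, a ratio of 1012 with a 95% counting interval of 181 to 40020 (exact binomial, counting error only).

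The 10 largest falls were, in order, in Akr1c14, the hydroxysteroid dehydrogenase that reduces dihydrotestosterone, the differentiation keratin gene Krt24, Il1f10, which encodes IL-38, the basement membrane collagen gene Col4a6, the calmodulin-like gene Calm5, the filaggrin-like gene Flg2, the receptor gene Mrgprb3, the secreted Ly6-type gene Slurp2, the cornified envelope gene Lce1m and the epidermal protease inhibitor gene Serpinb7. Akr1c14 (ENSMUSG00000033715, chromosome 13, 4099011 to 4140688) had 6.57, 5.96, 6.44 and 6.83 CPM in Model, against 82.2, 79.4, 80.3 and 82.4 CPM in Blank. It fell by 3.65 ± 0.10 on the log2 scale, so that the Blank level was 12.6-fold the Model level (edgeR adjusted p = 1.7e-18). Krt24 had 9.38, 12.3, 10.4 and 9.92 CPM in Model, against 102, 108, 105 and 109 CPM in Blank, and Serpinb7 had 39.4, 37.8, 40.8 and 29.1 CPM in Model, against 273, 274, 274 and 284 CPM in Blank. In none of the 3 genes did the groups overlap, which the rule that chose them required.

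Some of the chemokine genes that rose lie side by side, and for several of them the promoter sequence shows the same letters. Cxcl5, Ppbp, Pf4, Cxcl3, Cxcl1 and Cxcl2 were 6 consecutive tested genes on chromosome 5 (90907219 to 91053797 in the deposited table, whose build is not given) and all passed the 2-fold test, with log2 changes from 2.67 (Pf4) to 9.91 (Cxcl5). Cxcl1, Cxcl2, Cxcl3 and Cxcl5 attract neutrophils through the receptor CXCR2, whereas Ppbp and Pf4 are known from platelets and their precursors. The 250 bases upstream of the annotated start, from RefSeq on GRCm38.p6, all on the plus strand of chromosome 5, are printed for the 5 of these genes found in the promoter table, to set the strong responders beside the weaker ones. Capitals mark matches to the NF-kB consensus on either strand and the letters TATAAA.

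Cxcl1 at chr5:90890995-90891244: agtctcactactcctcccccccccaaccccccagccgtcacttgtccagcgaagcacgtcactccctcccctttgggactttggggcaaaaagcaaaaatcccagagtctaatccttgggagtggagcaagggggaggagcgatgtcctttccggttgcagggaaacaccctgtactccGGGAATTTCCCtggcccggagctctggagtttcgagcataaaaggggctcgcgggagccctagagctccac

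Cxcl2 at chr5:90903649-90903898: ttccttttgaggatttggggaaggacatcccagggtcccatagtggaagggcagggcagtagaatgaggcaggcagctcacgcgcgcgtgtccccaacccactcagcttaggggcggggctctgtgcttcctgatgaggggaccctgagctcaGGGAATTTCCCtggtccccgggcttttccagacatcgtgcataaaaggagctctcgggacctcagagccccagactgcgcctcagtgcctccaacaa

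Cxcl3 at chr5:90785851-90786100: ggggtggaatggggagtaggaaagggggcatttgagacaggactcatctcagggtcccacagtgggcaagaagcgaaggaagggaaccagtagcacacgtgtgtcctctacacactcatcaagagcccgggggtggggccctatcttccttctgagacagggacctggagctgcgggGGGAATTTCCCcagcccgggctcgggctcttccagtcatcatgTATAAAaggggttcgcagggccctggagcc

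Ppbp at chr5:90768268-90768517: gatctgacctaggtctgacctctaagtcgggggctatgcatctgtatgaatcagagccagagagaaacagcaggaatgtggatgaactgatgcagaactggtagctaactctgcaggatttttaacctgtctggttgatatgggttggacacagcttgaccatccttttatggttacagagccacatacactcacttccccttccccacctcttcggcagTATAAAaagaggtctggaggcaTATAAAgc

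Pf4 at chr5:90772185-90772434: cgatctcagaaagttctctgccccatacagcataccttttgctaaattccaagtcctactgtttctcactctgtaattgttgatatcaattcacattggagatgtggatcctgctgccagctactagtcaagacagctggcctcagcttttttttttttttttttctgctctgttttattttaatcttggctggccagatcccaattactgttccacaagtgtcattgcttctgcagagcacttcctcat

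The promoters of Cxcl1, Cxcl2 and Cxcl3 each held the letters GGGAATTTCC, starting 71, 97 and 73 bases upstream of the annotated start, and the overlapping match on the other strand is offset by 1 base. These letters occurred in 28 of all 32851 promoters in the table (0.0852%), and any match to the NF-kB consensus in 7.25%. The Ppbp and Pf4 windows held no match, and Ppbp held TATAAA at 30 and 8 bases upstream. Cxcl1 had 83.3, 81.8, 74.5 and 83.6 CPM in Model, against 1.65, 1.42, 1.12 and 1.51 CPM in Blank, and rose 56.2-fold. Ppbp had 4.36, 5.42, 6.04 and 6.97 CPM in Model, against 0.441, 1.25, 0.118 and 0.465 CPM in Blank, and rose 9.86-fold, and Pf4 had 79.8, 77.6, 76.2 and 87.4 CPM in Model, against 12.5, 14.7, 12.4 and 10.9 CPM in Blank, a rise of 6.35-fold. A match describes the letters of this window and was not tested as a binding site. Over the 10 largest rises and 10 largest falls, 6 and 8 had promoters in the table. The NF-kB consensus was found in 2 of the 6 and 1 of the 8. The 2 are Cxcl2 and Cxcl3, already printed above, so this is no separate observation. The interferon-gamma activated (GAS) letters TTCNNNGAA, which 7.02% of all promoters hold, were likewise found in 2 and 1. The AP-1 letters TGANTCA, which 6.75% hold, were found in 0 and 2. The vitamin D receptor direct repeat with a spacer of 3, which 0.222% of all promoters hold, was found in none of either. At so low a share, 6 and 8 promoters would most likely hold none in any case, so nothing is read from this. Cyp24a1, the largest rise, had no promoter in the table and was not searched.

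Among secreted signals the chemokines rose most uniformly. Of 15 CXC and CX3C chemokines tested, 14 were higher beyond 2-fold and 0 lower (median log2 change 4.36; 2.48 on log2(FPKM + 1), a scale that understates changes of low genes), and Cx3cl1, a membrane-bound chemokine of endothelium and epithelium, was the exception at -0.80 ± 0.12, which passed the test against no change. Of 17 CC chemokines, 12 were higher beyond 2-fold (median 3.11; 4.72 over the 11 that pass a filter of FPKM 5). Ccl3 and Ccl4, which attract monocytes and other leukocytes, rose by 9.02 ± 0.18 and 9.75 ± 0.25. Of the 3 CC chemokines lower by the test against no change, the furthest was Ccl27a, a keratinocyte chemokine for skin-homing T cells that had 2.58, 3.16, 3.19 and 2.55 CPM in Model, against 6.23, 6.88, 6.55 and 7.20 CPM in Blank; 45% of the 50-base words of its transcripts also occur in other genes, so its counts are uncertain. The groups did not overlap for Ccl27a, but its fall of 1.22 did not pass the 2-fold test.

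The interleukin-1 family did not move as a block. Of its 27 tested members with the inflammasome genes, 20 were higher, 18 of them beyond 2-fold, and 4 were lower, 2 of them beyond 2-fold (median 1.52). Nlrp3, the sensor of the inflammasome, rose by 7.71 ± 0.14, Mefv, the pyrin sensor of myeloid cells, by 6.05 ± 0.11, and Il18rap, a subunit of the IL-18 receptor, by 6.07 ± 0.09. Il18 itself lay near the threshold, at -0.15 ± 0.07 (adjusted p = 0.0540). It was called lower in 9 of 17 alternatives, among them the fit of Model and Blank alone (-0.15, adjusted p = 0.0102) and that without scaling factors (-0.28, adjusted p = 0.00036). The falls beyond 2-fold were in 2 genes. Il1f10 had 2.44, 1.97, 1.97 and 1.94 CPM in Model, against 22.9, 20.2, 19.1 and 20.9 CPM in Blank, and Nlrp10, an NLR gene of the upper epidermis, fell by 1.93 ± 0.07. Pycard, the inflammasome adaptor, was lower by 1.004 ± 0.06 without passing the 2-fold test.

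In the TNF family, 12 of 28 members were higher beyond 2-fold and 3 lower (median 1.05). Tnfsf11 (ENSMUSG00000022015, chromosome 14, 78514885 to 78545483), which encodes RANKL, had 34.05, 32.1, 31.7 and 32.9 CPM in Model, against 0.110, 0.284, 0.236 and 0.174 CPM in Blank. That is a rise of 7.30 ± 0.20 with no overlap between groups. Its decoy receptor gene Tnfrsf11b moved the other way and was lower by 0.85 ± 0.10. Tnfsf14 (LIGHT) rose by 5.40 ± 0.21 and its receptors Tnfrsf14 and Ltbr were both higher, by 2.36 ± 0.18 and 1.07 ± 0.08. The falls beyond 2-fold were in Tnfsf18 (GITR ligand, -2.22 ± 0.24), Tnfrsf19 (-2.01 ± 0.06), a receptor of hair follicle epithelium, and Ngfr (-1.36 ± 0.14), the low-affinity neurotrophin receptor.

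Many genes linked to itch act in sensory neurons, whose cell bodies lie outside the ear, and 19 of the 42 listed genes were below the filter, Il31 and Trpa1 among them. Of the 23 tested, 9 were higher beyond 2-fold and 1 lower. Osm (ENSMUSG00000058755, chromosome 11, 4186420 to 4191026), which encodes oncostatin M, had 168, 145, 158 and 165 CPM in Model, against 0.662, 0.625, 0.236 and 0.232 CPM in Blank. The Osm rise of 8.46 ± 0.18 stood beside rises in its receptor subunit Osmr (1.44 ± 0.05) and, without passing the 2-fold test, Il31ra (0.75 ± 0.16). The histamine receptor gene Hrh2 rose by 3.15 ± 0.20, the endothelin receptor gene Ednrb by 4.60 ± 0.08 and the substance P receptor gene Tacr1 by 2.36 ± 0.10. Calcb, which encodes a calcitonin gene-related peptide, had 3.69, 4.29, 3.73 and 3.95 CPM in Model, against 20.1, 18.9, 21.9 and 21.02 CPM in Blank and fell by 2.38 ± 0.15.

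The epidermal growth factor ligands split. Epgn (epigen) had 70.2, 83.1, 68.02 and 82.6 CPM in Model, against 2.87, 1.93, 2.06 and 2.15 CPM in Blank, and Areg (amphiregulin) had 24.1, 27.4, 24.95 and 29.95 CPM in Model, against 1.49, 0.455, 0.826 and 0.697 CPM in Blank. Btc (betacellulin) had 7.09, 5.84, 6.10 and 6.10 CPM in Model, against 22.5, 20.8, 21.3 and 18.9 CPM in Blank, and Ereg (epiregulin) had 35.8, 34.1, 36.8 and 36.7 CPM in Model, against 95.2, 96.6, 96.1 and 102 CPM in Blank. The groups did not overlap in any of these 4: Epgn and Areg rose by 5.07 ± 0.11 and 4.92 ± 0.16, Hbegf rose by 2.56 ± 0.07, and Btc and Ereg fell by 1.74 ± 0.13 and 1.44 ± 0.07. The receptor genes Erbb2 and Erbb3 were lower by 1.01 ± 0.06 and 0.70 ± 0.06, and Egfr by 0.19 ± 0.05, none past the 2-fold test. In the TGF-beta, BMP and activin list, 6 of 35 were higher beyond 2-fold, led by the stress cytokine Gdf15 (4.42 ± 0.48) and the activin subunit Inhba (3.73 ± 0.12), and 4 were lower, Bmp3 (-1.78 ± 0.10) and Tgfb2 (-1.57 ± 0.07) furthest. Tgfb1 rose by 2.80 ± 0.08, the opposite of Tgfb2.

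Wnt and Hedgehog genes, which pattern hair follicles and epidermal stem cells, were mostly lower: 32 of 44 tested members were lower and 4 higher, and 10 fell beyond 2-fold where 0 rose (median -0.60). Wnt10b (ENSMUSG00000022996, chromosome 15, 98668593 to 98676031) had 1.48, 0.655, 1.22 and 1.41 CPM in Model, against 8.22, 8.35, 9.20 and 9.18 CPM in Blank. Wnt3 fell by 2.52 ± 0.10 and Wnt7b by 1.91 ± 0.12. Targets and feedback genes of the pathway were lower too, with Axin2 at 12.2 ± 1.42 CPM in Model and 44.2 ± 3.16 CPM in Blank (SD, n = 4 each), a fall of 1.86 ± 0.09, and Notum and Nkd1 lower by 1.92 ± 0.19 and 1.48 ± 0.17. The stem cell receptor gene Lgr6 fell by 1.75 ± 0.07, while Lgr5 was lower by 0.71 ± 0.14 without passing the 2-fold test. Gli1, a Hedgehog target, was lower by 1.03 ± 0.13. Wnt10b, Nkd1, Lgr5 and Gli1 had values in only 12 of 17 alternatives. Low genes like these can pass the filter only through Blank, where they were higher, which adds to the count of falls. Wnt5a, a ligand of the non-canonical pathway, was higher by 1.06 ± 0.08 and was the largest of the 4 rises. Hair follicle keratin genes went the other way, holding 0.0235% to 0.0324% of counts in Model and 0.00983% to 0.0156% in Blank.

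**Figure D2:**
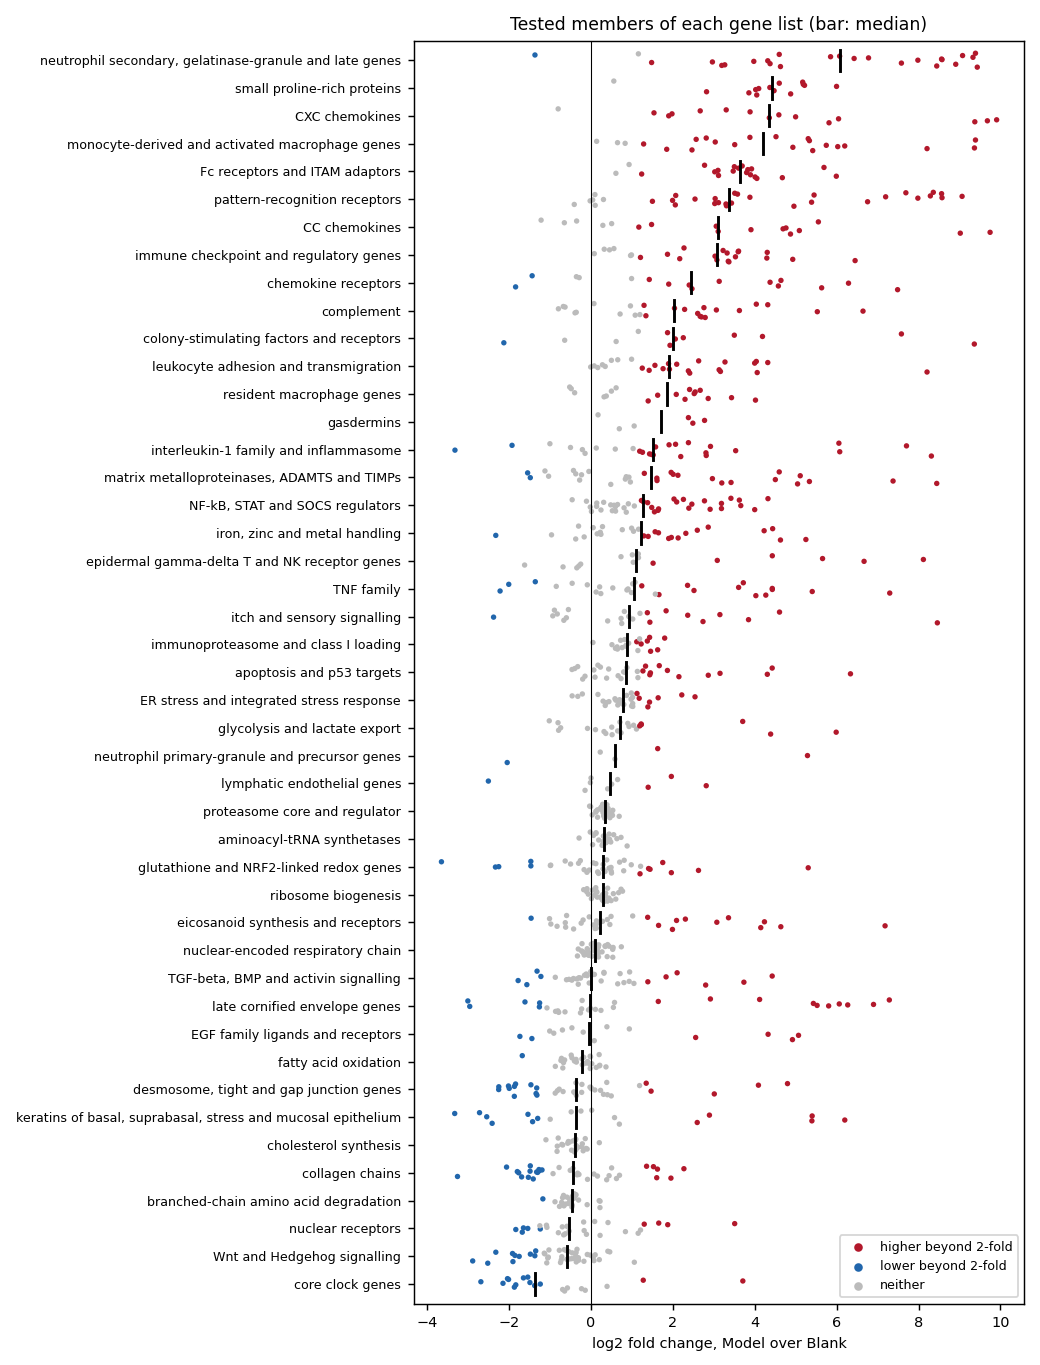
Each row is a gene list and each point a tested member, with its log2 fold change, Model over Blank, on the x axis; red points passed the 2-fold test upwards, blue points downwards, and the black bar is the median. Rows are ordered by median, from 6.07 for late neutrophil genes at the top to -1.38 for clock genes at the bottom.

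Receptors of innate immunity were nearly all higher. Of 32 pattern-recognition receptors, 26 rose beyond 2-fold and none fell so far (median 3.37). Fpr1, the formyl peptide receptor of neutrophils, had 1618 counts over the Model libraries and 3 over the Blank libraries, a ratio of 629 with a 95% counting interval of 215 to 3053. Trem1, an amplifier of myeloid activation, had 289.7, 271, 277 and 298 CPM in Model, against 1.49, 0.568, 0.531 and 0.348 CPM in Blank, and Clec4e, the receptor for mycobacterial cord factor, had 222, 212, 215 and 235 CPM in Model, against 1.10, 0.341, 0.236 and 0.581 CPM in Blank. Both were near 0 in Blank and high in each Model library. Clec7a, the beta-glucan receptor Dectin-1, rose by 7.20 ± 0.09, and the Toll-like receptor genes ranged from 5.39 ± 0.08 for Tlr13 to -0.41 ± 0.13 for Tlr5, the flagellin receptor and the member that was lower. Ifih1, a sensor of viral RNA, was higher by 0.30 ± 0.05, a call that was lost on TPM values (0.07, adjusted p = 0.317). All 20 tested Fc receptors and their signalling adaptors were higher, 18 of them beyond 2-fold (median 3.65), with Fcgr4 up by 5.99 ± 0.14; Ms4a2, the beta chain of the IgE receptor, was higher by only 0.61 ± 0.10.

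Of 16 chemokine receptors tested, 11 rose beyond 2-fold and 2 fell (median 2.43; 1.12 on log2(FPKM + 1)). Ccr1, a receptor of Ccl3 on myeloid cells, had 402, 382, 399 and 424 CPM in Model, against 2.65, 2.50, 1.65 and 2.09 CPM in Blank and rose by 7.49 ± 0.09. Ccr4, a receptor of skin-homing and type 2 T cells, had 6.35, 7.69, 8.61 and 6.70 CPM in Model, against 29.1, 24.2, 25.5 and 26.7 CPM in Blank and fell by 1.84 ± 0.12. Ackr4, a scavenger of CCR7 ligands in keratinocytes and lymphatics, fell by 1.44 ± 0.08. Among colony-stimulating factors and receptors, 8 of 12 rose beyond 2-fold and Il34, the keratinocyte ligand of the CSF1 receptor that maintains Langerhans cells, fell by 2.13 ± 0.11, with 9.39 ± 0.758 CPM in Model and 41.03 ± 1.68 CPM in Blank (SD, n = 4 each). Csf1, the other ligand of that receptor, rose by 1.93 ± 0.05, and the receptor gene Csf1r by 2.06 ± 0.06.

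Complement genes were mostly higher. Of 25 complement genes, 15 rose beyond 2-fold and none fell so far (median 2.04; 1.34 to 1.36 without any 1 Model library, when 2 of the 25 genes drop below the filter, and 1.14 on log2(FPKM + 1)): the C5a receptor gene C5ar1 rose by 5.53 ± 0.13, the central component C3 by 2.61 ± 0.05 and C1qa by 2.79 ± 0.08, while the surface inhibitors Cd55 and Cd59a were lower by 0.63 ± 0.07 and 0.68 ± 0.07. Ptgs2 (ENSMUSG00000032487, chromosome 1, 149975782 to 149983978), the inducible cyclooxygenase, had 387, 429, 348 and 418 CPM in Model, against 3.92, 2.61, 2.005 and 2.26 CPM in Blank. Its rise of 7.18 ± 0.19 contrasted with Ptgs1, the constitutive enzyme, which was lower by 0.83 ± 0.05. The prostaglandin E synthase gene Ptges and the receptor gene Ptger2 rose by 1.65 ± 0.05 and 4.24 ± 0.21, and Hpgd, which inactivates prostaglandins, was lower by 0.98 ± 0.08. Over the whole eicosanoid list 11 of 32 rose and 1 fell beyond 2-fold. Alox15 rose by 3.36 ± 0.15 and the epidermal lipoxygenase gene Alox12e fell by 1.46 ± 0.14.

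**Figure D3:**
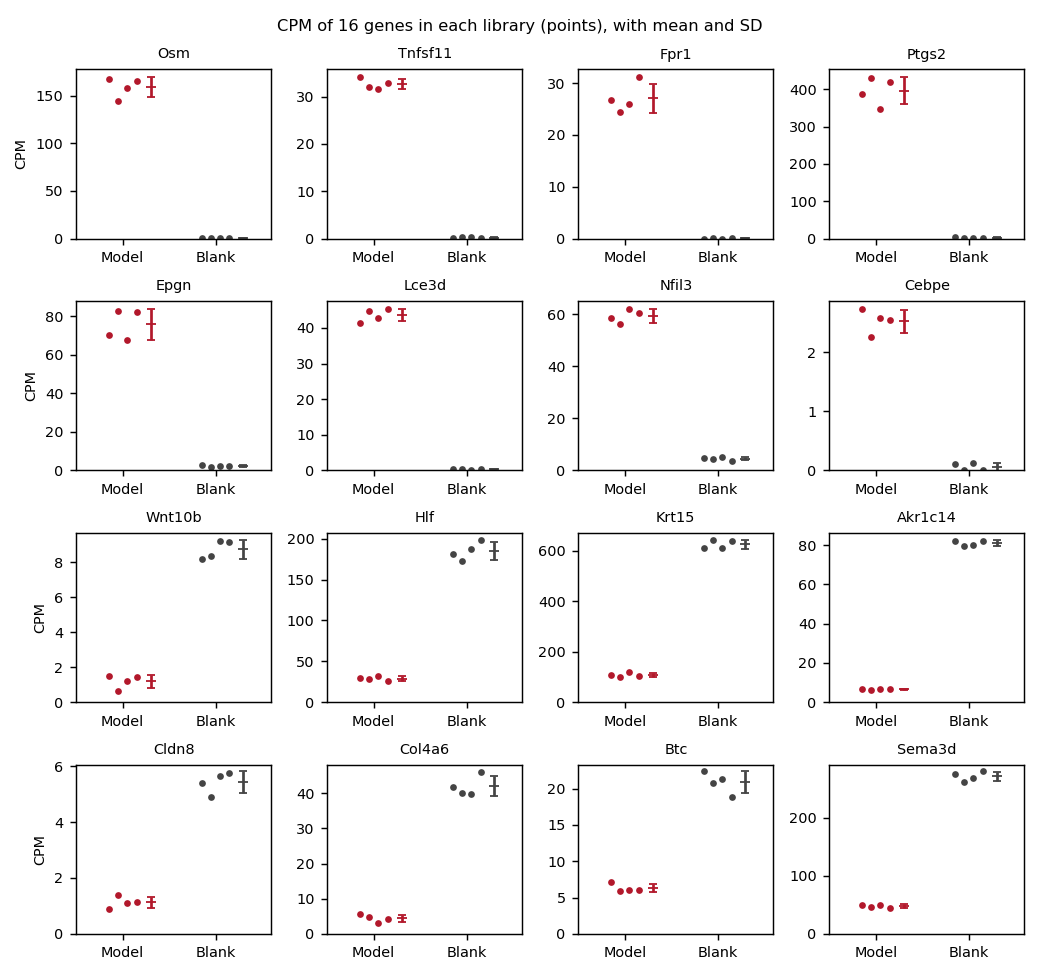
CPM of 16 genes in each Model and Blank library (points), with the mean and SD of the 4 libraries of a group to the right of its points; each panel has its own linear axis from 0. Model lies above Blank in the 8 panels of the upper rows, and below it in the 8 panels of the lower rows, with no overlap in any panel. For Akr1c14 and Col4a6 the rule for the largest falls required this.

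Transcription factors and feedback regulators of inflammation rose with the signals. Of 39 NF-kB, STAT, SOCS and related genes, 21 rose beyond 2-fold and none fell so far (median 1.28). Batf, which supports helper T cell subsets, rose by 4.32 ± 0.26, Nfkbid, a nuclear IkB protein, by 3.998 ± 0.10, and Socs3, the feedback inhibitor of STAT3 signalling, by 3.19 ± 0.07. The NF-kB subunits changed far less, with Nfkb2 up by 1.55 ± 0.08 and Rela by 0.60 ± 0.07. Among nuclear receptors, 4 of 27 rose and 5 fell beyond 2-fold. The immediate early receptor gene Nr4a3 rose by 3.51 ± 0.08, and Ppara, the fatty acid receptor, fell by 1.68 ± 0.21. Vdr, the receptor that MC903 binds, had 70.7, 68.9, 68.7 and 68.5 CPM in Model, against 63.1, 56.7, 60.3 and 57.2 CPM in Blank. Its difference of 0.22 ± 0.06 passed the test with TMM scaling, was 0.08 without scaling factors and turned to -0.01 on TPM values, so no direction is given for it. Its partner Rxra was lower by 0.67 ± 0.06, and the glucocorticoid receptor gene Nr3c1 by 0.59 ± 0.06.

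Clock genes gave the lowest median of all the lists. Of 19 tested, 11 fell beyond 2-fold and 2 rose (median -1.38). The hour of sampling of each group is not given, so time of collection and MC903 cannot be told apart for these genes. The circadian clock is a loop in which the CLOCK protein and BMAL1, the product of Arntl, switch on Per, Cry and Nr1d genes through E-box sequences and the products then repress it; Dbp, Tef and Hlf are PAR-domain output factors, and Nfil3 is their repressor. Hlf (ENSMUSG00000003949, chromosome 11, 90227362 to 90281721) had 29.5, 28.2, 31.6 and 25.3 CPM in Model, against 181, 172, 187 and 199 CPM in Blank. Dbp had 15.6, 13.4, 16.3 and 14.5 CPM in Model, against 66.6, 66.6, 65.9 and 65.8 CPM in Blank, and Nfil3 had 58.7, 56.1, 62.1 and 60.6 CPM in Model, against 4.85, 4.38, 5.31 and 3.60 CPM in Blank. The output factors Hlf, Dbp and Tef thus fell by 2.69, 2.15 and 1.49, and Nfil3 rose by 3.71 ± 0.09, each with separate groups. Per3, Ciart and Nr1d1 fell by 1.87 ± 0.06, 2.04 ± 0.10 and 1.84 ± 0.07, while Per1, Per2 and Arntl differed by less, at -0.23 ± 0.06, -0.58 ± 0.07 and -0.65 ± 0.07. Cry1 was higher by 0.39 ± 0.09 (0.15 and not called on TPM values, adjusted p = 0.134) and Cry2 fell by 1.38 ± 0.06. Of 16 clock genes with a promoter in the RefSeq table, 5 held the E-box letters CACGTG (Per1, Cry1, Tef, Bhlhe41 and Ciart), against 6.02% of all promoters. A gene counted if any of its promoters held the letters, whereas the 6.02% is over single promoters. Of these 5 genes, 3 fell beyond 2-fold. Among genes without the letters, Per3, Cry2, Nr1d1, Dbp and Hlf fell beyond 2-fold too, while Arntl did not and Nfil3 rose.

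Genes of late neutrophils gave the highest median of all the lists. The list is not exclusive to neutrophils, and Acod1, for example, is also counted among monocyte-derived and activated macrophage genes. Of 25 genes of secondary granules and late neutrophils, 23 rose beyond 2-fold (median 6.07, the same with Ngp and Ly6g, which have no Blank counts, at their lower bound, and 3.96 on log2(FPKM + 1)), and Wfdc21 fell by 1.37 ± 0.10. Mmp8, the neutrophil collagenase, had 78.1, 73.9, 74.4 and 83.2 CPM in Model, against 0.221, 0.114, 0.354 and 0.174 CPM in Blank, and Retnlg, a resistin-like gene of neutrophils, had 101, 99.8, 94.1 and 105 CPM in Model, against 0.0551, 0.227, 0.472 and 0.0581 CPM in Blank. Of the 10 genes of primary granules and neutrophil precursors, only 5 passed the filter, and Elane, Prtn3, Ms4a3, Fcnb and Gfi1 did not. Of these 5, 3 were higher and 1 lower, with 2 higher and 1 lower beyond 2-fold (median 0.59; 0.34 to 1.17 when 1 library is left out). Cd63, a granule membrane gene that many other cells express, rose by 1.63 ± 0.05. Mpo, myeloperoxidase, had 1.70, 1.73, 1.97 and 1.14 CPM in Model, against 6.07, 6.48, 5.96 and 8.59 CPM in Blank and fell by 2.05 ± 0.19, and Cebpe, the factor of granulocyte maturation, had 151 counts over the Model libraries and 4 over the Blank libraries.

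Among macrophage genes, 19 of 22 from monocyte-derived or activated cells rose beyond 2-fold (median 4.20) and 11 of 18 resident genes did (median 1.86). Arg1 and Nos2, which compete for arginine, rose by 6.03 ± 0.13 and 6.20 ± 0.21, and Spp1 (osteopontin) by 5.75 ± 0.08. Timd4 and Mrc1, of resident cells, rose by 4.02 ± 0.13 and 3.43 ± 0.07, whereas Maf, Gas6 and Mgl2 were lower by 0.52 ± 0.05, 0.48 ± 0.05 and 0.40 ± 0.07. Of 16 genes of gamma-delta T cells and NK cells, 6 rose beyond 2-fold. Gzma (granzyme A) had 19.1, 23.9, 22.2 and 22.6 CPM in Model, against 0.165, 0, 0.0590 and 0.0581 CPM in Blank, with 5 counts in all over the Blank libraries, and Gzmb rose by 5.66 ± 0.16. The NK receptor gene Ncr1 had 222 counts over the Model libraries and 2 over the Blank libraries, a ratio of 129 with a 95% counting interval of 35.4 to 1075. Trgv5, a variable segment of the gamma-delta receptor of mouse epidermis, was lower by 1.62 ± 0.45. Checkpoint and regulatory genes rose beyond 2-fold in 17 of 23 (median 3.08; 1.79 on log2(FPKM + 1)), with the PD-1 ligand gene Pdcd1lg2 up by 6.45 ± 0.28, Il10 by 4.30 ± 0.30 and Ctla4 by 3.08 ± 0.15. Foxp3, the factor of regulatory T cells, lay below the filter.

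In vessels, 18 of 26 adhesion and transmigration genes rose beyond 2-fold and none was lower by the test (median 1.90). The endothelial selectin genes Selp and Sele rose by 4.06 ± 0.08 and 2.41 ± 0.08, and Vcam1 and Icam1 by 3.13 ± 0.08 and 2.38 ± 0.07. Of 10 lymphatic endothelial genes, 3 rose and 1 fell beyond 2-fold, with Pdpn up by 2.81 ± 0.10, Prox1, the factor that sets lymphatic identity, at -0.15 ± 0.14 (adjusted p = 0.370) and Sema3d, a guidance cue, at 49.7, 47.01, 50.4 and 44.4 CPM in Model, against 276, 262, 269 and 280.1 CPM in Blank, a fall of 2.51 ± 0.08.

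The epidermal differentiation complex, the block of genes on chromosome 3 that encodes much of the cornified envelope, did not change as a unit. All tested Sprr and Lce3 genes were higher, whereas other families were divided. The S100 genes ranged from 6.07 ± 0.20 for S100a9 to -0.37 ± 0.07 for S100a1. Between S100a1 and S100a10 (90418341 to 93471950 in the deposited table, 3.05 Mb), 72 genes were tested, of which 32 rose and 6 fell beyond 2-fold (median 0.69). Of 14 small proline-rich genes, 13 rose beyond 2-fold, from 2.82 for Sprr2a2 to 5.997 for Sprr2f, and Sprr4 was higher by 0.56 ± 0.13; Sprr2a1, Sprr2a2 and Sprr2a3 share 96.3%, 96.5% and 61.1% of their 50-base words with other genes, so reads cannot be split among them with certainty, and Sprr2k had only 78 counts in Model and 2 in Blank. All 6 Lce3 genes, which are associated with barrier repair, rose, from 5.43 for Lce3f to 6.90 for Lce3d. The Lce1 genes, expressed in normal cornified epidermis, did not: Lce1m fell by 2.96 ± 0.10 and Lce1l by 1.26 ± 0.08, and none of the 14 tested rose beyond 2-fold. Lce3d had 41.5, 44.7, 42.9 and 45.2 CPM in Model, against 0.496, 0.284, 0.177 and 0.465 CPM in Blank, and Lce1m had 17.2, 19.7, 23.5 and 15.7 CPM in Model, against 148, 151, 155 and 139 CPM in Blank. Neither gene's groups overlapped, which the rule for the largest falls required of Lce1m. Of the words of Lce3d and Lce3f, 49.3% and 48.0% are shared with other genes. Among the fused S100-type genes at one end of the complex, Rptn, Tchh and Flg rose and Flg2 fell by 3.01 ± 0.09. Lor (loricrin) fell by 1.61 ± 0.10, with 173 ± 20.1 CPM in Model and 528 ± 6.41 CPM in Blank (SD, n = 4 each).

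**Figure D4:**
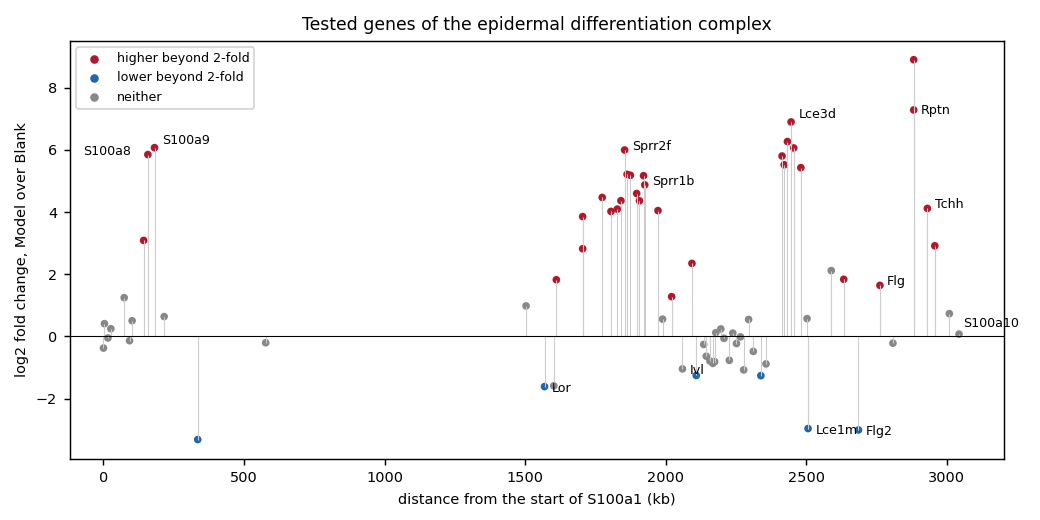
Tested genes of the epidermal differentiation complex by distance from the start of S100a1 in kb (x axis) and log2 fold change, Model over Blank (y axis); red points rose and blue points fell beyond 2-fold. The Sprr block and the Lce3 block stand above 0. The Lce1 genes between them lie mostly near or below 0, with Lce1k highest at 0.55. Lce1m, at -2.96, lies beyond the Lce3 block.

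Keratins divided in the same manner. Of 18 tested, 5 rose beyond 2-fold and 7 fell. The keratins of activated epidermis Krt6b, Krt16, Krt6a and Krt17 rose by 6.20 ± 0.18, 5.40 ± 0.13, 5.40 ± 0.12 and 2.89 ± 0.08; Krt6b, Krt6a and Krt16 share 50.1%, 45.7% and 37.6% of their words with other genes. Krt15, a keratin of basal and hair bulge cells, had 109, 99.1, 119 and 102 CPM in Model, against 612, 644, 609.9 and 639 CPM in Blank, and Krt77, a suprabasal keratin, had 200.1, 167, 249.6 and 166 CPM in Model, against 1369, 1250.5, 1298 and 1246 CPM in Blank. These fell by 2.55 ± 0.06 and 2.72 ± 0.09. Partners that pair in 1 filament did not move together: the basal pair gave 0.57 ± 0.07 for Krt14 and -1.43 ± 0.08 for Krt5, and the suprabasal pair 0.69 ± 0.07 for Krt1 and -1.30 ± 0.07 for Krt10.

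Cell junction genes were lower more often than higher beyond 2-fold, 11 against 5 of 36. The gap junction genes Gjb6 and Gjb2, for the connexins of hyperproliferative epidermis, rose by 4.80 ± 0.10 and 4.09 ± 0.10, and their relative Gjb5 fell by 1.84 ± 0.09. The tight junction gene Cldn8 had 0.886, 1.37, 1.08 and 1.14 CPM in Model, against 5.40, 4.89, 5.66 and 5.75 CPM in Blank, and Cgn, Marveld2 and Ocln fell by 2.02 ± 0.08, 1.87 ± 0.10 and 1.33 ± 0.10. Among desmosomal genes, Dsc2 rose by 3.01 ± 0.10 and Dsg1a, Dsc3 and Dsg2 fell by 1.87 ± 0.06, 1.34 ± 0.06 and 1.32 ± 0.07; 35% of the words of Dsg1a are shared with other genes. Of 6 gasdermins, the pore-forming proteins of pyroptosis, 3 rose beyond 2-fold and none fell; Gsdmd, the target of inflammatory caspases, had 65.3 ± 2.77 CPM in Model and 12.6 ± 1.31 CPM in Blank (SD, n = 4 each).

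In the matrix, proteases rose and many collagens fell. Of 30 metalloproteinase, ADAMTS and TIMP genes, 16 rose and 2 fell beyond 2-fold (median 1.46; 0.95 on log2(FPKM + 1)). Mmp13, a collagenase, had 312, 287, 296 and 328 CPM in Model, against 1.65, 1.42, 1.47 and 2.79 CPM in Blank, and Mmp3, stromelysin, had 816, 783, 746 and 862 CPM in Model, against 24.4, 23.2, 25.7 and 23.7 CPM in Blank. Timp1, an inhibitor of these enzymes, rose by 4.60 ± 0.11, while Timp3, which is bound to the matrix, was lower by 1.12 ± 0.06. Of 35 collagen chains, 6 rose and 14 fell beyond 2-fold. The chains of the type IV network went by pair: Col4a1 and Col4a2, of every basement membrane, rose by 1.95 ± 0.05 and 1.61 ± 0.05, and Col4a5 and Col4a6, of the epidermal one, fell by 1.69 ± 0.09 and 3.26 ± 0.13. Col4a6 had 5.54, 4.77, 3.12 and 4.09 CPM in Model, against 41.8, 40.1, 39.9 and 46.1 CPM in Blank. The anchoring collagens of the dermal junction, Col17a1 and Col7a1, fell by 2.06 ± 0.06 and 1.77 ± 0.07. Cartilage chains were lower as well, Col2a1 by 1.41 ± 0.13 and Col9a1 by 1.80 ± 0.07, in libraries where the summed share of cartilage markers was lower in Model (8 of 9 markers passed the filter, none was at 0 in all 8 libraries), and the part of that share in the result was not tested. Col1a1, of the main dermal collagen, was higher by 0.38 ± 0.06, or 0.15 and not called on TPM values (adjusted p = 0.0663).

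Metabolic genes moved by smaller amounts, and for these the scaling of the libraries matters. Glycolysis and lactate export genes were higher in 18 of 23, 6 of them beyond 2-fold (median 0.71; 0.47 with TPM values). Hk3, the hexokinase of leukocytes, rose by 5.99 ± 0.10, the glucose transporter gene Slc2a3 by 4.39 ± 0.12 and the lactate exporter gene Slc16a3 by 3.70 ± 0.10, while Pfkm and Ldhb, forms common in muscle, were lower by 0.79 ± 0.09 and 0.81 ± 0.07 in libraries whose muscle share was lower; that share's part was not tested. Branched-chain amino acid degradation genes were lower in 21 of 25 (median -0.47; -0.68 with TPM), Aldh6a1 furthest at -1.18 ± 0.08, and cholesterol synthesis genes in 22 of 25 (median -0.38; -0.60 with TPM), the regulator gene Srebf1 furthest at -1.10 ± 0.09. Fatty acid oxidation genes were lower in 16 of 27 and higher in 2 (median -0.21; -0.44 with TPM). The nuclear-encoded respiratory chain had 19 higher, 7 lower and none beyond 2-fold, and its median of 0.10 turned to -0.03 without scaling factors and to -0.13 with TPM values, so no direction holds for it.

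Several lists of protein making and quality control were mostly higher in small steps with TMM scaling. Cytosolic ribosomal protein genes did not go with them and held 3.27% of counts in Model and 3.64% in Blank. Proteasome subunits were higher in 27 of 31 and lower in none, with no member beyond 2-fold (median 0.33; 0.10 with TPM), aminoacyl-tRNA synthetases in 17 of 22 (median 0.31; 0.08 with TPM) and ribosome biogenesis genes in 19 of 29 (median 0.28; 0.04 with TPM). Endoplasmic reticulum stress genes were higher in 26 of 30, 7 beyond 2-fold (median 0.79): the phosphatase subunit gene Ppp1r15a rose by 2.54 ± 0.07, the mitochondrial folate enzyme gene Mthfd2 by 2.22 ± 0.09 and the chaperone gene Hspa5 by 1.39 ± 0.05. Phgdh and Psat1, of serine synthesis, were lower by 0.46 ± 0.07 and 0.32 ± 0.05; 47.8% of the words of Phgdh are shared with other genes. Immunoproteasome and class I loading genes were higher in 19 of 20 (median 0.89), the immunoproteasome subunit gene Psmb10 by 1.63 ± 0.09.

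Redox genes moved in both directions. Of 38 glutathione and NRF2-linked genes, 7 rose and 5 fell beyond 2-fold. Slc7a11, the cystine importer, had 165, 149.9, 156 and 161 CPM in Model, against 4.63, 3.92, 3.66 and 3.72 CPM in Blank, and Hmox1, haem oxygenase, had 224 ± 7.35 CPM in Model and 57.6 ± 2.81 CPM in Blank (SD, n = 4 each). Gsta3, a glutathione transferase, fell by 2.25 ± 0.15, Gstm1 by 1.47 ± 0.08, and the classical NRF2 target Nqo1 was higher by 0.50 ± 0.09. Metal handling genes rose beyond 2-fold in 14 of 28 (median 1.23), with the zinc importer gene Slc39a4 up by 4.44 ± 0.22, the phagosomal metal transporter gene Slc11a1 by 5.25 ± 0.11 and the ferritin genes Fth1 and Ftl1 by 1.90 ± 0.05 and 2.13 ± 0.06; 50.9% of the words of Ftl1 are shared with other genes. Mt4, the metallothionein of squamous epithelium, fell by 2.33 ± 0.09, against rises of 1.40 ± 0.07 and 1.29 ± 0.07 in Mt1 and Mt2. In the apoptosis and p53 list 12 of 30 rose and none fell beyond 2-fold; the BCL2 family genes Mcl1, a survival factor, and Bcl2l11, which promotes death, rose by 1.44 ± 0.04 and 2.86 ± 0.07, and the p53 targets Cdkn1a, Mdm2 and Sesn1 stood at 0.73 ± 0.06, 0.38 ± 0.05 and -0.46 ± 0.06.

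Genes with large changes also formed runs along the chromosomes. Counting maximal runs of at least 4 consecutive tested genes that all passed the 2-fold test the same way, 49 runs were higher and 2 were lower; 11.3% of all tested genes rose and 4.14% fell beyond 2-fold, unequal shares that by themselves favour runs of rises, and nothing is read from the difference between the counts. The longest held 15 genes, Prr9 and the Sprr2 and Sprr1 genes (chromosome 3, 92029511 to 92393202), and the next 14 genes, AW112010 and the Ms4a family of membrane proteins (chromosome 19, 11021557 to 11582213, log2 changes from 1.62 to 5.58). Runs of 8 genes covered the Cd300 receptors on chromosome 11, the stefin genes with Cd86 on chromosome 16 and the Trem receptors on chromosome 17, the last with changes from 3.51 to 8.56. Runs of 7 included the chemokines from Ccl5 to Ccl4 (chromosome 11) and Krt84 to Krt6a (chromosome 15). The metalloproteinases Mmp13, Mmp12, Mmp3, Mmp10, Mmp8 and Mmp27 formed a run of 6 on chromosome 9. Members of such families share sequence, 93.8% of the 50-base words for Cd300ld4 and 82.1% for Cd300ld3, and overlapping or antisense transcripts cannot be told apart because the strand setting of the counting is not given.

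Both lower runs held 4 genes. On chromosome 2 (9357242 to 9894845), Gata3, a factor of keratinocyte differentiation and of type 2 lymphocytes, and 3 non-coding neighbours fell. Gata3 had 40.8, 43.6, 52.9 and 36.9 CPM in Model, against 133, 121, 126 and 131 CPM in Blank and fell by 1.55 ± 0.07, and the neighbour Gm13219 fell by 2.63 ± 0.16. On chromosome 7 (48200713 to 48335362), Mrgprb2, Mrgprb3 and 2 pseudogenes of that receptor family fell. Mrgprb2, the receptor through which peptides activate connective tissue mast cells, had 3.84, 3.04, 2.17 and 3.48 CPM in Model, against 9.54, 7.67, 8.43 and 9.81 CPM in Blank, and Mrgprb3 had 1.48, 2.32, 1.70 and 1.14 CPM in Model, against 12.2, 15.6, 12.7 and 13.5 CPM in Blank. The groups did not overlap for either gene, which the rule for the largest falls required of Mrgprb3.

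**Figure D5:**
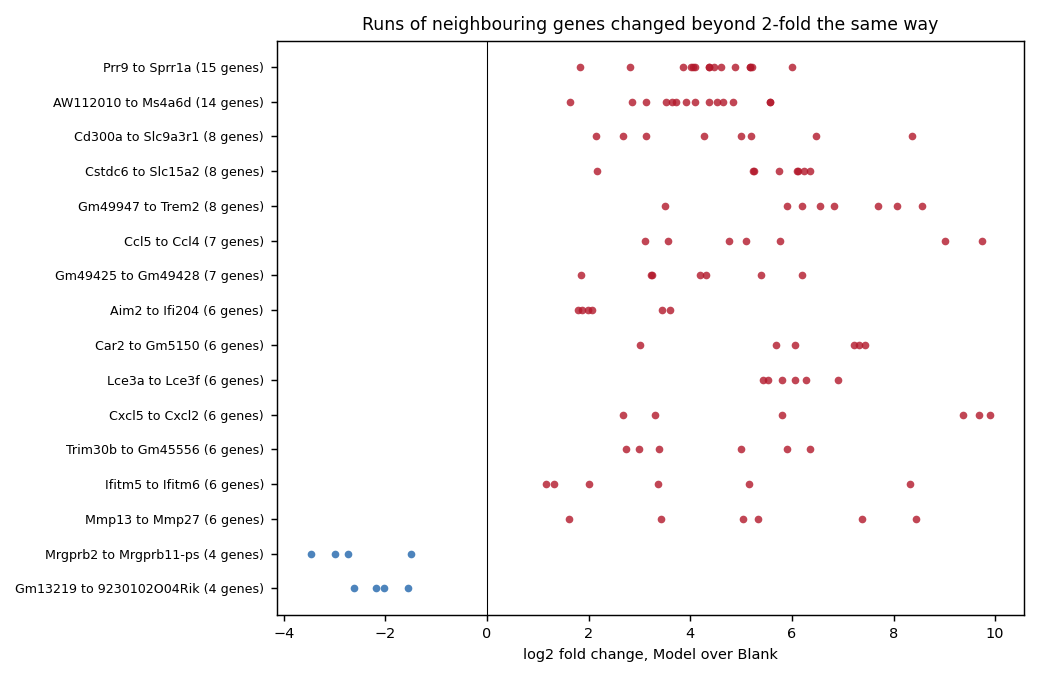
Each row is a run of consecutive tested genes that all passed the 2-fold test in 1 direction, named by its first and last gene, and each point is a gene with its log2 fold change, Model over Blank, on the x axis. The 14 runs of 6 or more genes that are drawn are all higher in Model (red), and the 2 lower runs of 4 genes (blue) reach -3.48.

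Measured as TPM, which corrects for gene length and gives every library the same total, the gain was largest for S100a9. This subunit of calprotectin had 9466, 8856, 8879 and 9383 TPM in Model, against 263, 158, 94.2 and 121 TPM in Blank. Krt16 had 2412.5, 3235, 2995 and 2738 TPM in Model, against 100.4, 85.4, 66.3 and 63.8 TPM in Blank, and Ccl8, a monocyte chemokine, had 2896 ± 169 TPM in Model and 132 ± 4.18 TPM in Blank (SD, n = 4 each). The largest losses outside the mitochondrial genome were in keratins: Krt10 had 3690 ± 455 TPM in Model and 10695 ± 414 in Blank, and Krt2 had 1212 ± 138 and 7600 ± 345. The mitochondrial ribosomal RNAs mt-Rnr2 and mt-Rnr1 were also among the largest gains, with 10118 ± 357 and 10046 ± 275 TPM in Model and 2951 ± 124 and 3948 ± 115 TPM in Blank, while messenger genes of the same genome were among the largest losses, mt-Co1 at 57203 ± 1821 TPM in Model and 66104 ± 1373 TPM in Blank. On the log2 scale mt-Co1 was at 0.02 ± 0.05 with TMM scaling and turned to -0.11 without scaling factors, and 51.1% of its words occur in other genes. The summed share of mitochondrially encoded genes was 8.98% in Model and 9.09% in Blank (exact permutation p = 0.543). The libraries were made from RNA captured on poly-T beads, and the part of that step in the ribosomal RNA levels was not tested.

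Some genes had no reads at all in untreated ears. With no count in any Blank library and at least 10 counts in each Model library there were 46 genes, 21 of them without a predicted-gene name, and no gene met the reverse rule. Against a floor of 3 counts over the Blank group, Mcpt1 was at least 240.2-fold higher and Mcpt2 at least 193-fold; these are mast cell proteases of mucosal type. Mrgpra2a, a receptor gene of which 87.5% of the words are shared with related genes, had 86, 77, 90 and 93 counts in Model, at least 134-fold above the floor. Spib, an ETS-family factor of B and plasmacytoid dendritic cells, had 71, 124, 96 and 95 counts, at least 150.02-fold above it, and Art2a, an ADP-ribosyltransferase of T cells, was at least 164-fold above it. A count of 0 in Blank allows a level up to that floor.

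Long non-coding genes were higher less often than all tested genes. Of 906 long non-coding genes tested, 217 were higher and 346 lower (median -0.235) and 117 rose and 53 fell beyond 2-fold. Over all tested genes, 35.3% were higher and 34.9% lower, and 11.3% rose and 4.14% fell beyond 2-fold. The share of long non-coding genes that were lower, and both shares beyond 2-fold, were near those values. Of 13080 protein-coding genes, 4902 were higher and 4826 lower (median -0.003), a split that depends on the scaling. Mirt2, an antisense transcript on chromosome 15 known to be induced by lipopolysaccharide in macrophages, had 38.3, 35.7, 36.1 and 36.99 CPM in Model, against 0.110, 0.170, 0.236 and 0.116 CPM in Blank and rose by 7.80 ± 0.17. Gm12436, an intergenic transcript on chromosome 4, had 2.22, 1.31, 1.29 and 1.47 CPM in Model, against 13.1, 14.2, 15.3 and 13.2 CPM in Blank and fell by 3.16 ± 0.15. Both come from a ranking that kept only genes whose groups do not overlap.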

How the data were processed

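RNA from whole ears was sequenced after capture on poly-T beads and 15 cycles of PCR, per the labels' protocols. Per the submitters' processing notes the authors used fastp 0.22.0, HISAT2 2.1.0 and HTSeq 0.9.1; genome build, annotation and strand setting are not given in the sources used here. The deposited table holds, for 56691 genes, raw read counts and FPKM values that the authors computed; the FPKM equalled the counts per length and library total for 100% of values within rounding of 0.005. A gene was tested when 4 or more of the 12 libraries reached an FPKM of 1 (15403, with 99.2% to 99.4% of counts).

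Counts were scaled with TMM and tested in 1 fit of the 3 groups with edgeR 4.0.16 in R 4.3.3, by the quasi-likelihood test and, against a fold of 2, by glmTreat, with two-sided p-values adjusted by the Benjamini-Hochberg method over all tested genes and called under 0.05. On simulated counts for Model against Blank with 15403 genes, 98% of genes raised and 90% of genes lowered by 1.5 on the log2 scale were called, 68% and 74% at 0.5, and 0.0789% of unchanged genes. Only 50 genes were changed at each size and direction, as many up as down. In the data 70.1% of genes were called and large changes were mainly rises. The simulation therefore does not give the rate of false calls in this comparison. Levels are CPM with TMM factors, and log2 changes are given ± SE. Alternatives used DESeq2 1.42.0 and limma 3.58.1. Intervals and floors cover counting error only, since no molecular identifiers are described.

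The members and gene lists were chosen with earlier results of these data known, so lists are described by counts and medians with no test. A low member can pass the filter only through the group where it is higher, so counts of members partly follow from the filter. Gdf15, Hrh2, Nos2 and Ptger2 among the rises, for example, had values in 12 of 17 alternatives. Named genes are the 10 largest rises and falls past the 2-fold test with groups that do not overlap, FPKM of 5 or more and counts in both groups, the 8 largest TPM gains and losses, up to 8 genes without counts in 1 group, up to 3 members each way per list and the longest runs; other genes were chosen after their values were seen. A run of neighbouring genes and a few single genes are not reported here. Motifs were searched in the 250 bases before the start in RefSeq promoters (GRCm38.p6). Both strands were searched, except for TATAAA, which was searched only on the strand as printed. Shared sequence was measured over words of 50 bases cut from GENCODE M21 transcripts, as the percent also found in another gene.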

Additional observations from a re-analysis of the deposited data

Results flagged for a closer look

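Among 516 groups of 4 libraries behind the values given, 22 held a library far from the other 3 by Dixon's ratio at the 95% level, where chance gives about 1 in 20 groups. In Model, the library that stood apart was Model-1 for Icam1 (82.3 CPM against 72.3 to 72.7 CPM in the other 3), Il1f10 (2.44 CPM against 1.94 to 1.97), Ltbr (52.1 CPM against 48.4 to 48.8), Nr3c1 (164 CPM against 156 in the other 3) and, on the low side, Sprr2a2 (2.07 CPM against 4.20 to 4.62). It was Model-2 for Mrgpra2a (4.59 CPM against 6.10 to 6.35), and Model-4 for Cgn (23.7 CPM against 28.1 to 29.0) and Krt10 (2337 CPM against 3007 to 3074).

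In Blank, Blank-4 was the highest library for Krt2 (6574.5 CPM against 6019 to 6106), Krt5 (3389 CPM against 3089 to 3136), Tchh (103.6 CPM against 56.4 to 63.6) and Serpinb7 (284.5 CPM against 273 to 274) and the lowest for Bmp3 (14.9 CPM against 16.8 to 17.1), Mgl2 (28.0 CPM against 31.8 to 31.9) and Osmr (59.4 CPM against 63.2 to 63.9). Blank-1 was highest for Krt6b (44.1 CPM against 18.9 to 23.1) and mt-Co1 (33028 CPM against 31385 to 31563) and lowest for Mefv (0.827 CPM against 1.36 to 1.47). Blank-2 was highest for Cd59a (39.1 CPM against 34.2 to 35.02) and Sprr2k (0.114 CPM against 0 in the other 3), and Blank-3 for Gsdmd (14.5 CPM against 11.7 to 12.2) and Csf3 (0.0590 CPM, a single count, against 0).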

How the results depend on the processing

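Over 254 genes named with values, 248 kept direction and call under every alternative that tested them. Not every gene passed the filter in all 17 alternatives. Wnt10b, Cldn8, Mpo, Ly6g and Ngp, for example, were tested in 12, and the alternatives without a value say nothing about their stability. Vdr turned to -0.0099 on TPM values, and mt-Co1 to -0.11 without scaling factors, -0.093 with upper-quartile factors, -0.020 with the FPKM filter at 5, -0.11 on FPKM and -0.21 on TPM. Counts of called genes moved by over 1.5 times with the FPKM filter at 5, which tests 9164 genes (3474 higher, 1102 higher beyond 2-fold), and with limma on FPKM (1140 higher and 410 lower beyond 2-fold). Leaving out 1 library in turn gave 5054 to 5140 genes higher and 5017 to 5086 lower, and beyond 2-fold 1563 to 1701 higher and 516 to 616 lower. Medians of lists near 0 changed sign: EGF family 0.035 with the FPKM filter at 5; TGF-beta family 0.0085 without Blank replicate 4 (range -0.036 to 0.0085 over the left-out libraries) and 0.0046 with DESeq2; eicosanoid genes -0.024 on TPM; late cornified envelope genes 0.020 without Model replicate 1 and 0.021 without Model replicate 4 (range -0.042 to 0.021); and respiratory chain -0.034 without scaling factors and on FPKM, -0.013 with upper-quartile factors and -0.13 on TPM. Other list medians moved in size but not in sign. On log2(FPKM + 1), which shrinks changes of low genes by construction, they were 2.48 for CXC chemokines, 1.12 for chemokine receptors, 1.14 for complement, 3.96 for late neutrophil, 1.79 for checkpoint and 0.95 for metalloproteinase genes. Leaving out 1 library changed which members pass the filter, and the medians ran from 1.34 to 2.18 for complement, 0.34 to 1.17 for primary-granule genes and -0.55 to -0.19 for nuclear receptors. Genes detected per library were higher in Model by 70.75 at 1 FPKM and lower at 5 FPKM, a difference of -158.75, and the mitochondrial share turned to 0.0167 percentage points without Model replicate 2 (range -0.200 to 0.0167 over the left-out libraries). Runs numbered 102 higher and 12 lower at a minimum of 3 genes, and 27 and 0 at 5. The cause of these shifts was not tested. With 3 against 4 libraries the exact permutation test cannot go below 0.0571. Precision is limited where Blank holds few counts.

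Replicate numbers are shared by the groups but do not pair the samples: same-numbered libraries gave correlations of deviations from -0.0443 to -0.0116. With the replicate block, 5416 genes were higher and 5321 lower, and 1743 and 635 beyond 2-fold; it changed the call of 0 of the 254 genes.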
